A study of Scophthalmus maximus with 8 samples.

Results

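The 2 ends of the turbot series were compared for the position, width and arrangement of accessible chromatin. Turbot (*Scophthalmus maximus*) is a flatfish. The later end is the post-metamorphic juvenile at 37dph (days post hatching), from which the last part of the body behind the cloaca had been cut off. The earlier end is the embryo at the phylotypic stage, 3dpf (days post fertilization), taken as the whole animal after removal of the chorion with pronase. Each stage had 2 biological replicates, and cells were dissociated with collagenase before the assay, for longer at the later stage. The members are all peaks of both stages, 46248 at 37dph and 94714 at 3dpf, which together make 140962 of the 246426 peaks of the 4 stages profiled. Stage, sampled part of the body and dissociation time change together between these 2 groups and cannot be told apart.

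In ATAC-seq, the Tn5 transposase cuts DNA that nucleosomes leave free and marks it for sequencing, so that promoters, enhancers and other regulatory elements appear as peaks. The phylotypic stage is the point at which embryos of different vertebrates look most alike, when the body axis, brain vesicles and somites are laid out. Flatfish metamorphosis follows much later, under the control of thyroid hormone, and turns a symmetrical swimming larva into an asymmetric bottom-dwelling juvenile with 1 migrated eye and remodelled skull, skin and gut. A whole animal holds many cell types, and a peak in such a sample can come from a change in each cell or from a change in the share of a cell type, which cannot be told apart here.

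Each stage was represented by 1 list of peaks that both replicates supported, so values per replicate, a spread between replicates and a p-value between the stages cannot be given. The lists do not hold the read depth, which affects how many peaks are called and how wide they are, and whose part in the results was not tested. By the study's own account, both juvenile libraries had more mapped reads than either embryo library. Shares are given with 95% Wilson intervals, which cover counting error only. Peaks in the same animals are not independent of each other. A 37dph peak was called kept if it overlapped a 3dpf peak by at least 1 bp and gained if it did not, and a 3dpf peak was called kept or lost in the same way against the 37dph list. Lost and gained refer to called peaks, and a missing peak does not show closed chromatin. Positions refer to assembly ASM1334776v1. Genes near the peaks were not analysed here.

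The juvenile list was shorter and its peaks were narrower. Median width was 204 bp at 37dph (interquartile range 170 to 277) and 274 bp at 3dpf (211 to 382). The peaks covered 11.1 Mb at 37dph and 30.2 Mb at 3dpf, a ratio of 0.366, while the ratio of peak numbers was 0.488. Distances between neighbouring summits, the positions of highest signal in each peak, differed less than peak numbers did at short range. The share of neighbouring summits no more than 1000 bp apart was 20.9% at 37dph and 22.4% at 3dpf, and the closest 10% lay within 432 bp at 37dph and 526 bp at 3dpf. At long range the juvenile list was sparser, with a median distance of 5423 bp at 37dph and 3257 bp at 3dpf. The widest 25% of distances were over 12736 bp at 37dph and over 7108 bp at 3dpf. Juvenile peaks thus stood about as often in close pairs as embryo peaks, with wider empty stretches elsewhere. Of the juvenile distances, 1712 lay between summits under the same embryo peak, with a median of 275 bp. The part of peak width, and of how signal is divided into peaks, in the close distances was not tested.

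Of the 37dph peaks, 10305 were gained, which is 22.3% of the list (95% Wilson interval 21.9 to 22.7), and 35943 were kept. Of the 3dpf peaks, 60292 were lost, which is 63.7% (63.4 to 64.0), and 34422 were kept. There were 5.85 lost peaks for each gained one. Gained peaks covered 2.31 Mb and lost peaks 18.96 Mb. These totals follow the lengths of the lists in part, since a long list leaves more of its peaks without a partner. With the 46248 strongest peaks of each stage, 20333 were gained (44.0%) and 21870 were lost (47.3%), which is 1.08 lost peaks for each gained one.

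Most links were simple. A total of 32499 pairs joined exactly 1 peak of each stage, which took in 90.4% of the kept 37dph peaks and 94.4% of the kept 3dpf peaks. Another 1588 embryo peaks lay over 2 or more juvenile peaks, and 5 of them lay over 4. These split embryo peaks were broad, with a median width of 610 bp, against 258 bp for embryo peaks over 1 juvenile peak. A peak has to be broad to reach over separate peaks, so this contrast follows in part from how the group was chosen. The juvenile summits within a split peak stood a median of 275 bp apart (interquartile range 242 to 345, 1712 distances). The opposite case was rare, as 191 juvenile peaks lay over 2 embryo peaks and none lay over more.

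Few peaks without a partner lay directly beside a peak of the other stage. Gained peaks had their nearest 3dpf peak a median of 1603 bp away, edge to edge, and lost peaks had their nearest 37dph peak a median of 4836 bp away. Within 100 bp of a peak of the other stage stood 770 gained peaks (7.47%, 6.98 to 8.0) and 1697 lost peaks (2.81%, 2.69 to 2.95). Counting every peak with a partner within 500 bp as kept left 7878 gained and 53034 lost peaks. The larger distance for lost peaks goes with the lower density of the 37dph list.

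Gained and lost peaks were weaker than kept ones. Peaks were ranked within their own list by the −log10 p of the peak caller and divided into deciles. Whether this value and the fold enrichment were computed on both replicates together or on 1 of them is not given in the sources used here, so ranks hold for the lists as deposited. In the strongest decile of the 37dph list, 17 of 4625 peaks were gained (0.368%, 0.230 to 0.588), and in the weakest decile 2508 of 4624 were (54.2%, 52.8 to 55.7). In the 3dpf list, 1667 of the 9472 strongest peaks were lost (17.6%, 16.8 to 18.4), and 8069 of the 9471 weakest were (85.2%, 84.5 to 85.9). Both shares increased at every decile from strong to weak. Strong peaks without a partner were far more frequent in the embryo. Among the 1000 strongest peaks of each list, 1 was gained and 37 were lost. Among the 10000 strongest, 117 were gained (1.17%, 0.977 to 1.40) and 1820 were lost (18.2%, 17.5 to 18.97). Each was set against the full list of the other stage. The 3dpf list is longer, so juvenile peaks had more peaks to match.

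Lost peaks were wide for their strength. Gained peaks had a median of 184 bp (interquartile range 154 to 269) and kept 37dph peaks 208 bp (175 to 279), while lost peaks had 279 bp (215 to 377) and kept 3dpf peaks 265 bp (205 to 395). Kept peaks were stronger, and stronger peaks were wider at 3dpf and in the stronger part of the 37dph list. Kept 37dph medians were 276 bp in the strongest decile, 181 bp in the seventh and 186 bp in the weakest. Widths were therefore also compared within deciles. In the third decile of the 3dpf list the median was 357 bp (95% interval of the median 353 to 361) in lost peaks and 259 bp (256 to 262) in kept peaks. In the weakest decile it was 211 bp (208 to 213) in lost peaks and 165 bp (163 to 167) in kept peaks. By median, lost peaks were wider in all 10 deciles, by 35 to 98 bp and by 68.2 bp in the mean over deciles, against 14 bp without deciles. Mean widths without deciles went the other way, at 314 bp in lost and 327 bp in kept 3dpf peaks. In the 37dph list, gained minus kept medians lay between −18 and 11 bp over the deciles, with a mean of −4.55 bp, against −24 bp without deciles. These differences depended on the peaks compared. Gained minus kept was −42 bp with lists of equal length and −46 bp in the top 50% of each list, and lost minus kept was 48 and 39 bp there.

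**Figure D1:**
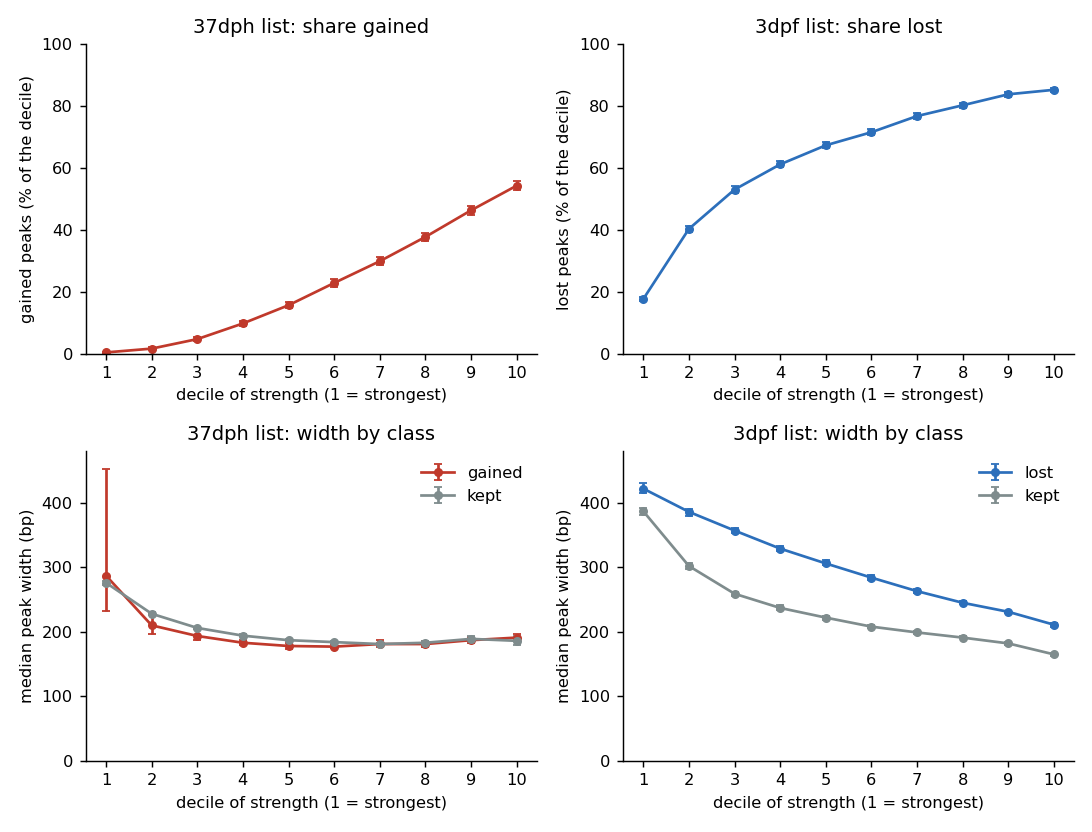
Share of gained peaks in the 37dph list (top left) and of lost peaks in the 3dpf list (top right) in percent, and median peak width in bp by class (bottom), against the decile of strength within the list; bars are 95% intervals for counting error. The share gained climbs from 0.368% to 54.2% and the share lost from 17.6% to 85.2%, and lost peaks lie above kept ones in width at every decile while gained and kept 37dph peaks differ by no more than 18 bp.

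Width and loss were not related in one direction. In the 3dpf list the share lost was 64.5% (62.6 to 66.4) among the 2471 peaks up to 150 bp wide. It was 58.4% (57.7 to 59.2) over 150 and up to 200 bp and 70.6% (69.9 to 71.2) over 300 and up to 400 bp. It was 44.1% (42.2 to 46.0) between 700 and 1000 bp and 30.1% (25.7 to 34.96) among the 375 peaks over 1000 bp. The median −log10 p of these embryo width classes was 10.6, 15.3, 24.8, 41.8 and 46.5, so the broadest embryo peaks were also the strongest. Wide peaks can also meet a partner more easily, since any shared base pair counts. The parts of strength and of easier overlap in the low loss of the broadest peaks were not tested. The share gained in the 37dph list was highest among the narrowest peaks, at 43.9% (42.5 to 45.3) up to 150 bp, and 15.5% (14.8 to 16.2) between 200 and 250 bp. It was 22.7% (21.6 to 23.8) between 300 and 400 bp and 9.41% (6.10 to 14.2) among the 202 peaks between 700 and 1000 bp. The median −log10 p of these width classes was 10.5, 21.4, 16.4 and 20.5, so the narrowest juvenile peaks were also the weakest.

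Peaks of every class had neighbours of their own class more often than their share of the list. The nearest neighbour in the list was itself gained for 27.8% (26.9 to 28.7) of gained peaks, against 22.3% gained in the list as a whole. It was itself lost for 71.5% (71.2 to 71.9) of lost peaks, against 63.7% lost in the whole list. The same held for kept peaks. The nearest neighbour was kept for 81.6% (81.2 to 82.0) of kept 37dph peaks, against 77.7% kept in the list. For kept 3dpf peaks it was 52.1% (51.5 to 52.6), against 36.3%. How far a share can exceed that of the list depends on the class, so the excess does not rank the classes by clustering. Kept peaks lay closer to their nearest neighbour than the others, but had about as many summits around them. The median distance to the nearest summit was 2973 bp for gained and 1654 bp for kept 37dph peaks, and 1592 bp for lost and 1100 bp for kept 3dpf peaks. Peaks with no other summit of their list within 10000 bp on either side made up 15.3% of gained and 11.2% of kept 37dph peaks. They made up 4.19% of lost and 2.70% of kept 3dpf peaks. The median number of other summits within 10000 bp was 2 for gained and kept 37dph peaks and 4 for lost and kept 3dpf peaks. Within 50000 bp the mean was 11.59 for gained and 11.62 for kept 37dph peaks, and 19.8 for lost and 20.3 for kept 3dpf peaks. The kept 37dph peaks include 3300 that lie under split embryo peaks. Their part in the shorter distance was not tested.

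The link between neighbours was also read by distance. For 37dph peaks whose nearest summit was no more than 500 bp away, 36.2% (33.8 to 38.7) were gained if that neighbour was gained and 10.3% (9.71 to 10.99) if it was kept. Between 2000 and 5000 bp these shares were 29.0% (27.2 to 30.8) and 27.4% (26.4 to 28.4), with overlapping intervals, and between 10000 and 50000 bp they were 33.1% (30.6 to 35.8) and 26.0% (24.7 to 27.4). For 3dpf peaks with a neighbour no more than 500 bp away, 64.9% (63.9 to 66.0) were lost beside a lost neighbour and 38.6% (37.5 to 39.7) beside a kept one. Between 10000 and 50000 bp the shares were 77.8% (76.1 to 79.4) beside a lost and 61.0% (57.9 to 64.0) beside a kept neighbour. Juvenile peaks that lie under the same embryo peak are kept together by the linking itself. Leaving out the 3126 juvenile peaks that share a linked embryo peak with their nearest neighbour, 2861 of them in the shortest range, gave 36.2% gained beside a gained and 15.4% (14.5 to 16.4) beside a kept neighbour at no more than 500 bp. The same step left out 357 embryo peaks and gave 64.9% lost beside a lost and 40.0% (38.9 to 41.2) beside a kept neighbour. Whether neighbours also resembled each other in strength was not tested. The excess over the share of the class in the list was 5.52 percentage points for gained peaks. Under alternatives, each with its own list share, it was 1.39 in the top 50% of each list and 1.69 with a global IDR of at most 0.01. It was 1.97 with summits within 100 bp and 2.21 with equal lists. Without the peaks that share a linked peak with their neighbour it was 3.91. There the share of gained peaks with a gained neighbour stayed at 27.8%, and the share gained rose to 23.9%. For lost peaks the excess was 7.86 points and lay between 5.05 and 18.9 under the alternatives. The highest value came from counting partners within 500 bp. That rule can link close neighbours to the same partner, so part of this excess can be built in.

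**Figure D2:**
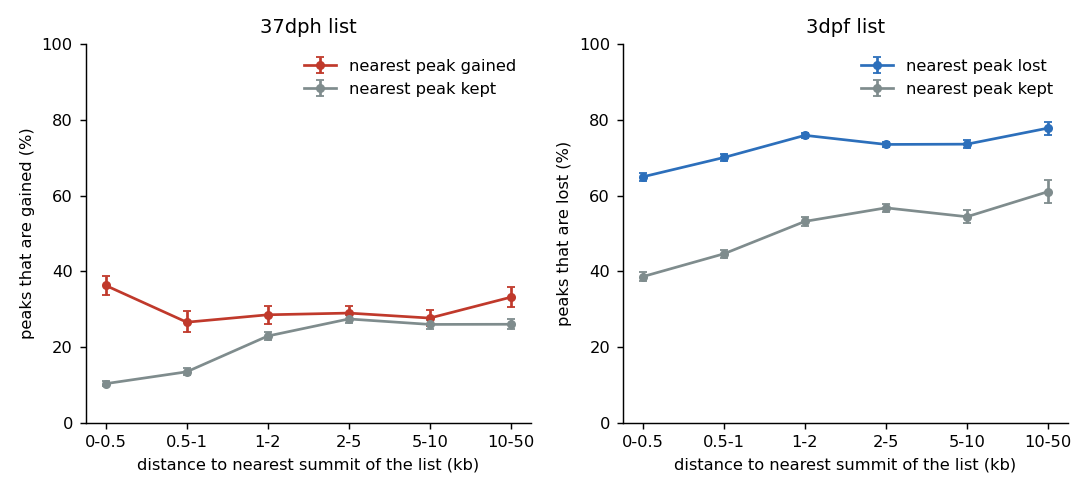
Percent of 37dph peaks that were gained (left) and of 3dpf peaks that were lost (right), against the distance to the nearest summit of the same list in kb, split by the class of that neighbour; bars are 95% Wilson intervals, and peaks that share a linked peak of the other list are included. At 37dph the shares are 36.2% and 10.3% at the shortest range and lie within a few points of each other between 2 and 10 kb, while at 3dpf they stay apart at every range.

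Runs of peaks were also counted. A run is an unbroken series of peaks of 1 class along a chromosome in its own list. Gained peaks formed 7519 runs with a mean of 1.37 peaks, and the longest run had 9. Of the gained peaks, 53.7% stood alone as runs of 1 peak. Lost peaks formed 17348 runs with a mean of 3.48 peaks. Of the lost peaks, 18433 (30.6%) were in the 1203 runs of 10 or more, and 5525 in 202 runs of 20 or more. Kept 3dpf peaks had 55 runs of 10 or more and a longest run of 17. A class that makes up more of a list has longer runs for that reason alone, so run lengths are not compared between classes as a measure of clustering. For the same reason, the short runs of the smaller class of gained peaks do not show that they were scattered.

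The longest run of lost peaks lay on chromosome 13 from 23629601 to 24410885, where 76 embryo peaks in a row over 781 kb had no juvenile partner. The juvenile list had 5 peaks in that span, and the 15dph and 23dph lists had 23 and 8. A run of lost peaks can hold only gained juvenile peaks, so their class, and in part their low number, follow from its choice. A second run on chromosome 13, from 20593008 to 21545240, held 61 lost peaks over 952 kb, with 3 juvenile peaks, 23 at 15dph and 5 at 23dph. Both runs were sparse at 3dpf, with 97.3 and 64.1 peaks per Mb, against 174 in the list as a whole. The next longest, 57 lost peaks on chromosome 3 from 19641935 to 19840162, was dense instead, at 288 peaks per Mb, with a median width of 365 bp and 45.6% of its peaks in the stronger 50% of the list. On chromosome 13 the peaks were mostly weak, with 34.2% and 29.5% of them in the stronger 50%, against 37.6% of all lost peaks, although the best ranked 4738 and 7644 of 94714. The longest runs of gained peaks had 9 each. They lay on chromosome 2 from 23527738 to 23568481, chromosome 19 from 4820111 to 4883997 and chromosome 12 from 2482855 to 2559279. Across these runs the embryo list had 2 peaks on chromosome 2, 11 on chromosome 19 and 17 on chromosome 12. None of the 9 gained peaks on chromosomes 2 and 12 ranked in the stronger 50%, and 22.2% of those on chromosome 19 did.

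**Figure D3:**
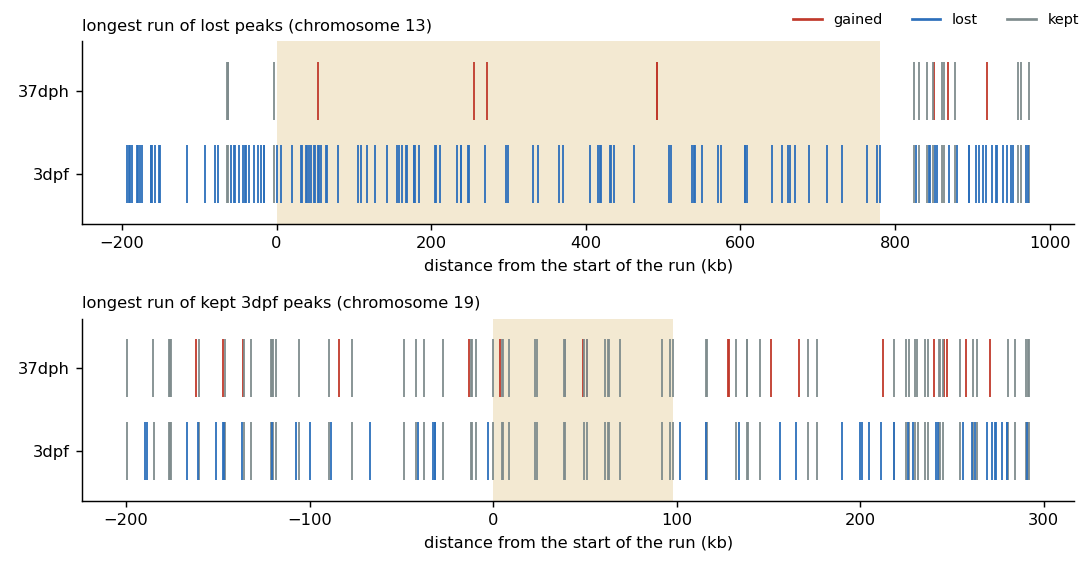
Summits of 37dph peaks (upper row) and 3dpf peaks (lower row) along the longest run of lost peaks and the longest run of kept 3dpf peaks, shaded, with 200 kb on each side; the horizontal axis is the distance from the start of the run in kb and colours give the class. In the first map 76 lost embryo peaks face 5 gained juvenile peaks (some summits are too close to be drawn apart), and in the second 17 kept embryo peaks face 18 kept and 3 gained juvenile peaks. The lack of kept juvenile peaks in the first run and their presence in the second follow from the choice of runs.

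In percentage points, loss differed more between chromosomes than gain did. The share gained lay between 19.7% (18.2 to 21.2) on chromosome 4 and 24.5% (22.8 to 26.4) on chromosome 2. The share lost lay between 56.7% (55.2 to 58.3) on chromosome 19 and 68.8% (67.5 to 70.1) on chromosome 5. Chromosome 22 was also low, at 58.7% (56.8 to 60.5) lost, and chromosomes 13 and 21 were high, at 68.6% (67.2 to 70.0) and 68.4% (66.7 to 70.0). The interval did not hold the whole-list value on 4 of 22 chromosomes for gain and on 10 of 22 for loss, without adjustment for the number of chromosomes. Within a chromosome the interval for gain was the wider one, since it rests on fewer peaks. With equal weight to each decile of strength, the shares lost ranged from 57.1 to 68.8% over the chromosomes, about as widely as without it. The share gained was then lowest on chromosome 4, at 20.1%, and highest on chromosome 22, at 24.6%, while chromosome 2 had 23.4%. Peak density varied more in the juvenile. Up to the last peak, chromosomes had 67.3 to 106 peaks per Mb at 37dph, a 1.57-fold range, and 161 to 186 at 3dpf, a 1.16-fold range. Chromosome 13 was lowest at both stages, and chromosome 19 was highest at 37dph. The ratio of 37dph to 3dpf peak numbers was lowest on chromosomes 5 (0.417), 13 (0.418) and 21 (0.424). It was highest on chromosomes 19 (0.570) and 22 (0.563). A lower ratio leaves more embryo peaks without a partner, as in the whole lists, and its part in the chromosome differences was not tested. Median widths hardly varied, from 199 to 208 bp at 37dph and from 267 to 280 bp at 3dpf.

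**Figure D4:**
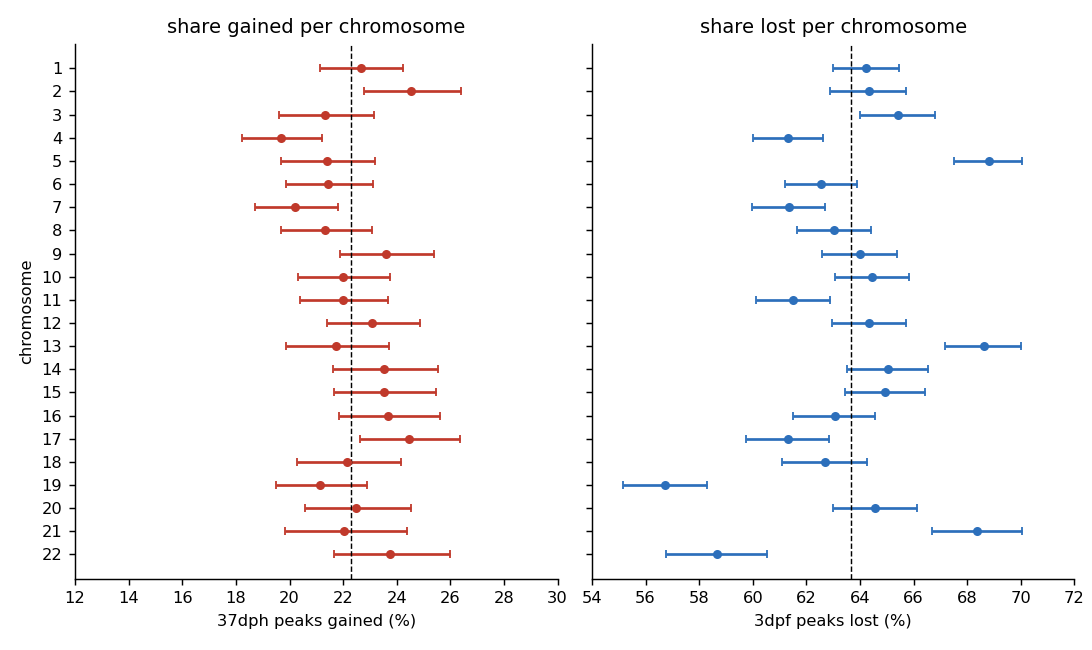
Percent of 37dph peaks gained (left) and of 3dpf peaks lost (right) on each of the 22 chromosomes, with 95% Wilson intervals; dashed lines mark the whole-list shares of 22.3% and 63.7%, and the axes do not start at 0. Both axes span 18 percentage points, and the points spread more widely for loss, with chromosomes 19 and 22 to the left and 5, 13 and 21 to the right.

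Loss was also counted in smaller units, which vary more by counting error alone than whole chromosomes do. Over 515 windows of 1 Mb with at least 100 embryo peaks, the share lost had a median of 64.3% and an interquartile range of 58.5 to 69.2%. It ranged from 39.8% (33.0 to 47.0) at the start of chromosome 8, where 74 of 186 were lost, to 88.0% (80.2 to 93.0) on chromosome 22 from 13000001 to 14000000, where 88 of 100 were. The first window had 149 juvenile peaks and the last 15. The high value on chromosome 22 stands on a chromosome whose own share was among the lowest. Each chromosome was also divided into 10 parts of equal length. Loss was lowest in part 6, just past the middle, at 60.0% (59.1 to 60.9), and highest in part 9, at 68.4% (67.4 to 69.3). Parts 2 and 3 were also high, at 66.4% and 65.9%, while the end parts 1 and 10 had 63.4% and 62.0%. Parts were numbered along the assembly, whose direction is arbitrary on each chromosome, so these shares do not show a trend from 1 end to the other. Part 6 held 5701 juvenile and 10402 embryo peaks, and part 9 held 3594 juvenile and 8601 embryo peaks. The share gained varied from 21.0 to 24.1% over the 10 parts.

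Linked peaks were narrower in the juvenile. In the 32499 one-to-one pairs the median width was 207 bp at 37dph (interquartile range 175 to 279) and 258 bp at 3dpf (203 to 370). The median ratio of widths, 37dph over 3dpf, was 0.856 (95% interval of the median 0.853 to 0.858). Of the pairs, 26016 (80.1%, 79.6 to 80.5) were narrower at 37dph, 6267 (19.3%) were wider and 216 had the same width. By 1.5-fold or more, 6440 pairs were narrower (19.8%) and 579 were wider (1.78%). Left and right follow the assembly, so likeness of the edges over all pairs does not show even narrowing within a pair. The left and the right edge each lay a median of 14 bp inside the embryo edge, and in 57.8% (57.2 to 58.3) of pairs the juvenile peak lay wholly inside the embryo peak, against 8.66% (8.36 to 8.97) for the reverse. Every chromosome had a median ratio between 0.842 and 0.872.

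Narrowing was seen at all strengths when both lists were used to rank the pairs. Pairs were ordered by the mean of their rank shares in the 2 lists and divided into 5 groups of equal size. In the strongest group the median width was 269 bp at 37dph and 345 bp at 3dpf, with a median ratio of 0.839, and 90.8% (90.1 to 91.5) of pairs were narrower. In the weakest group it was 174 bp at 37dph and 199 bp at 3dpf, with a ratio of 0.910 and 65.7% (64.5 to 66.8) narrower. Broad embryo peaks had the lowest ratios. The median ratio was 0.443 for the 1108 embryo peaks over 700 bp and 1.12 for the 860 up to 150 bp. Choosing pairs by the width in 1 list favours such a slope, because extreme widths tend to be followed by less extreme ones, and the same holds for ranking by 1 list. In the weakest decile of the 3dpf list the ratio was 1.05, whereas in the weakest decile of the 37dph list it was 0.768.

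Summits of linked peaks lay close together. The median distance between the 2 summits was 13 bp (interquartile range 4 to 41). In 45.1% (44.6 to 45.6) of pairs they lay within 10 bp, and in 81.0% (80.6 to 81.4) within 50 bp. In 15301 pairs the juvenile summit lay at higher and in 15347 at lower coordinates than the embryo summit. Coordinates follow the assembly and strand was not used, so this even split does not bear on direction along a gene. The juvenile summit fell inside the embryo peak in 99.4% of pairs, and the embryo summit inside the juvenile peak in 97.7%. Overlap was required for a link, which keeps summits close, so these distances describe linked peaks and do not test whether position changes. Summits over 100 bp apart were found in 1870 pairs (5.75%, 5.51 to 6.01), up to 809 bp. These were broad peaks, with a median width of 348 bp at 37dph and 476 bp at 3dpf, against 204 bp at 37dph and 250 bp at 3dpf in the other pairs. Narrow peaks that overlap cannot have summits so far apart, so this contrast also follows in part from the choice of pairs.

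**Figure D5:**
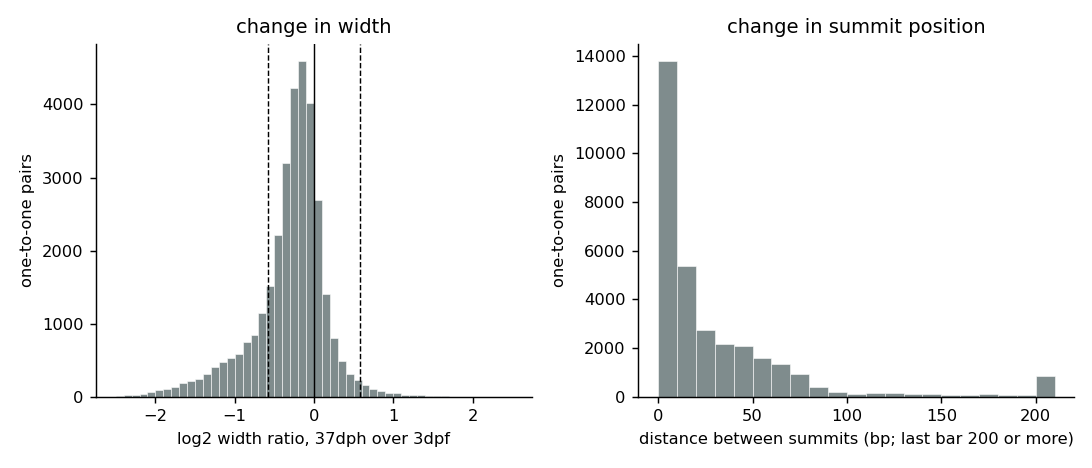
Number of one-to-one pairs by log2 of the width ratio, 37dph over 3dpf (left; solid line at equal width, dashed lines at 1.5-fold), and by the distance between the summits in bp (right; bins of 10 bp, with the last bar holding all pairs at 200 bp or more). The widths lean to the left of the equal line, with 19.8% of pairs past 1.5-fold narrower and 1.78% past 1.5-fold wider, and 45.1% of the summits lie within 10 bp of each other and 81.0% within 50 bp.

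The 3 strongest pairs were chosen by the sum of their ranks at both stages, so their high ranks follow from the choice. A pair on chromosome 11 spanned 23704487 to 23704846 at 37dph and 23704466 to 23704857 at 3dpf. It ranked 8 of 46248 at 37dph and 11 of 94714 at 3dpf, with the same summit and a width ratio of 0.918. A pair on chromosome 3 had widths of 678 bp at 37dph and 698 bp at 3dpf, with its juvenile peak from 25159177 to 25159854. A pair on chromosome 5, from 1994798 to 1995153 at 37dph, was 356 bp wide at 37dph and 643 bp at 3dpf, with summits 1 bp apart. Among the 16206 pairs in the stronger 50% of both lists, the width ratio was lowest on chromosome 8, with 155 bp at 37dph (6472532 to 6472686) and 1119 bp at 3dpf (6471528 to 6472646). The summits of that pair lay 328 bp apart, and the juvenile peak reached past the end of the embryo peak. The next lowest ratio was on chromosome 4, with 188 bp at 37dph (21729351 to 21729538) and 1301 bp at 3dpf (21729318 to 21730618). There the summits lay 14 bp apart. The widening was most pronounced on chromosome 16, with 845 bp at 37dph (2180143 to 2180987) and 204 bp at 3dpf (2180216 to 2180419). On chromosome 6 the widths were 1014 bp at 37dph (12946691 to 12947704) and 302 bp at 3dpf (12946702 to 12947003).

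The 15dph and 23dph lists were not used to define the classes. They hold 57611 and 47853 peaks, so a partner is more easily found at 15dph, and came from pre-metamorphic larvae and larvae at the climax of metamorphosis, trimmed in the same way as at 37dph. The 23dph list is the one that the labels assign to that stage, although its own name carries another day. Of the gained peaks, 39.5% (38.6 to 40.5) had a 15dph partner, 31.8% (30.9 to 32.7) a 23dph partner and 51.9% (50.9 to 52.8) neither. Of the lost peaks, 23.7% (23.4 to 24.1) were matched at 15dph and 15.2% (14.9 to 15.4) at 23dph, while 43413 had no match at either. Kept peaks were mostly found at both intermediate stages, at 83.0% of the kept 37dph and 83.6% of the kept 3dpf peaks. A gap at both intermediate stages was seen in 5.44% (5.21 to 5.68) of kept 37dph peaks and 5.32% (5.09 to 5.56) of kept 3dpf peaks.

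Peaks of every class were strongest where both intermediate stages also had them called, and weakest where neither did. Lost peaks still called at both 15dph and 23dph were in the stronger 50% of the 3dpf list in 67.5% of cases. The share was 51.3% for those called at 15dph only, 41.3% at 23dph only and 30.4% at neither. In that order, the median widths of lost peaks were 308, 306, 273 and 272 bp. Lost peaks called at 23dph only, the later stage, were weaker than those called at 15dph only. Peaks called at 23dph only lack a call at 15dph, so this order does not bear on how long a peak lasts. Gained peaks already called at both 15dph and 23dph were in the stronger 50% of the 37dph list in 31.7% of cases. The share was 17.1% for those called at 15dph only, 15.2% at 23dph only and 5.59% at neither. Kept peaks followed the same order, so it is not particular to gained and lost ones. The shares were 69.0, 22.8, 16.5 and 9.15% for kept 37dph peaks and 79.2, 39.4, 34.2 and 25.4% for kept 3dpf peaks. Weak peaks are more easily missed in any list, so these shares do not separate late changes from missed calls.

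The 3 strongest gained and the 3 strongest lost peaks had all been called at both intermediate stages. The strongest gained peak lay on chromosome 5 from 8577884 to 8578500. It ranked 982 of 46248, and its fold enrichment over background was 9.02. The next lay on chromosome 7 from 23984959 to 23985294, at rank 1145, with an embryo peak 89 bp away, and on chromosome 10 from 8289279 to 8290030, at rank 1521. The strongest lost peak lay on chromosome 7 from 5845380 to 5845795. It ranked 40 of 94714 with 15.0-fold enrichment, and its nearest juvenile peak was 6261 bp away. It was followed by a peak on chromosome 13 from 2462201 to 2462612, at rank 96, whose nearest juvenile peak was 55415 bp away, and one on chromosome 11 from 24625012 to 24625642, at rank 103. Outside the numbered chromosomes, 11 of 15 juvenile peaks on unplaced sequences were gained and 16 of 20 embryo peaks were lost. The mitochondrial sequence had 2 peaks at 37dph, 3155 and 3175 bp wide with fold enrichments of 1.58 and 1.67, and 0 at 3dpf. Both counted as gained.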

How the data were processed

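Per the labels and the methods of the study, nuclei of whole 3dpf animals and trimmed 37dph bodies were treated with Tn5, and the authors aligned paired reads to ASM1334776v1 with Bowtie2, shifted them to the cut site, kept short fragments, ran MACS2 on every replicate separately and kept, for each stage, the peaks on which its 2 replicates agreed by the Irreproducible Discovery Rate (IDR). The deposited lists give position and summit in bp, a score derived from the global IDR (at most 0.1), a fold enrichment, which is a ratio over local background, and −log10 values of p, q and IDR. Fold and −log10 p depend on each list's own libraries and were used only to rank or describe peaks within a list. Depth is not given by the lists, and 0 columns of per-sample values were left unmapped.

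Peaks were linked by an overlap of at least 1 bp. Shares carry 95% Wilson intervals and medians order-statistic intervals, both for counting error only. No test was run, since each stage has 1 list. Named regions are the 3 strongest gained, lost and linked peaks, the 2 lowest and 2 highest width ratios among strong pairs, and the longest runs. The third run of lost and of gained peaks, the windows of 1 Mb, the parts of chromosomes, the split peaks and the sets of the strongest peaks were added after the data had been seen. The members, measures and lists of alternatives were chosen with earlier results of these data known. Alternatives were equal list lengths, the top 50% of each list, a global IDR of at most 0.01, numbered chromosomes only, overlap of 50% of both peaks, summits within 100 bp, partners within 500 bp, a neighbour window of 50000 bp and deciles of strength. Linking was tested on simulated lists and against bedtools, and 8 of 8 counts were recovered. The gene table supplied is on another assembly, so genes, promoters, motifs and sequences were not analysed here. Calculations ran in Python 3.11.15 with pandas 2.3.3, numpy 2.4.6 and scipy 1.17.1, and plots were drawn with matplotlib 3.10.9.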

Additional observations from a re-analysis of the deposited data

How the results depend on the processing

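Of 149 values recomputed under alternatives, 49 moved by less than their counting error (counts by less than 1.5 times). The other 100 were counted as moved, among them the values for the window of 50000 bp, which had no counting error to compare with. Only differences have a direction that could change, and 0 of them changed it. Counts, shares, medians and ratios could not. Width differences were taken between medians only, and the mean widths of lost and kept 3dpf peaks, 314 and 327 bp, have the opposite order. Restricting the lists to numbered chromosomes moved no value. It left 46231 of 46248 peaks at 37dph and 94694 of 94714 at 3dpf, so this was almost fixed in advance. Equal list lengths leave the 37dph list unchanged by construction. No paired analysis was possible because both replicates of each stage were merged into 1 list, and for the same reason no replicate could be left out. The difference in loss between chromosomes 5 and 19, 12.1 percentage points, stayed between 11.7 and 14.8. Alternatives for genes, promoters and motifs were not run. Differences in width below are medians of gained minus kept 37dph peaks and of lost minus kept 3dpf peaks, and neighbour excess is the share of gained or lost peaks with a nearest neighbour of their own class minus the share of that class.

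With lists cut to equal length (46248 peaks), 20333 peaks were gained (44.0%) and 21870 lost (47.3%), 40.4% of gained and 64.6% of lost peaks had no 15dph or 23dph peak, the neighbour excess was 2.21 for gained and 11.6 for lost peaks, the width differences were −42 and 48 bp, and pairs had a median ratio of 0.824, 87.3% narrower and summits 15 bp apart. The top 50% of each list held 23124 and 47357 peaks by construction. Of these 5117 were gained and 29770 lost (62.9%), 45.4% of gained and 73.6% of lost had no intermediate peak, the excess was 1.39 and 7.04, the width differences −46 and 39 bp, the median ratio 0.837 and 87.4% narrower. A global IDR of at most 0.01 gave 6259 gained (20.01%), 62.4% lost, 47.0 and 74.8% with no intermediate peak, an excess of 1.69 for gained peaks, width differences of −39 and 43 bp, a ratio of 0.849, 84.5% narrower and summits 12 bp apart.

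An overlap of 50% of both peaks, which can only turn kept peaks into gained or lost ones, gave 16583 gained (35.9%), 68.7% lost, 48.9 and 71.5% with no intermediate peak, an excess of 7.84 and 5.05, width differences of −16 and 42 bp, a ratio of 0.873, 78.6% narrower and summits 12 bp apart. Summits within 100 bp gave 30.2% gained, 65.9% lost, 53.02 and 74.1% with no intermediate peak, an excess of 1.97 and 7.03, width differences of −12 and 26 bp, a ratio of 0.848, 80.8% narrower and summits 12 bp apart. Partners within 500 bp gave 17.03% gained, 56.0% lost, 49.7 and 68.2% with no intermediate peak, an excess of 9.38 and 18.9, width differences of −17 and 18 bp, 77.7% narrower and summits 14 bp apart. Since this rule can link close neighbours to the same partner, part of its excess can be built in. Averaging over deciles of strength gave width differences of −4.55 and 68.2 bp. Leaving out peaks that share a linked peak with their nearest neighbour, an alternative chosen after seeing the data, gave an excess of 3.91 for gained and 7.62 for lost peaks. Apart from changes that follow from the construction of an alternative, the cause was not tested. Depth limits every comparison of peak numbers and widths, and no alternative removes it.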
